A study of Mus musculus with 2 samples.

Results

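The transcripts of 46 genes that serve DNA replication and mitosis were read out in peritoneal macrophages as a measure of dividing cells. They were taken by symbol, 21 for DNA replication and 25 for mitosis, from 15605 genes listed in either library. The rule itself uses no measured value, but the genes were chosen with earlier results of these data known. The macrophages came from C57BL/6 mice of 6 to 8 weeks that were lgmn-/- or wild type at Lgmn, the gene for the lysosomal protease legumain. Both had been cultured for 4 days with EO771, a carcinoma line from the mouse mammary gland, and were rinsed with PBS before RNA was taken. There was 1 lgmn-/- library (knockout, KO) and 1 wild type library (WT), so differences between them lack replicates and carry no p-value. How the Lgmn allele was made, how many mice gave cells, and whether a membrane held the EO771 cells apart are not given in the sources used here.

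Replication begins when origins are licensed by loading of the MCM helicase, and polymerases then copy the DNA while the sliding clamp PCNA holds them on the template. Mitosis follows under cyclin B with CDK1, Aurora and Polo kinases, which build the spindle, and it ends when the anaphase promoting complex marks cyclin B for breakdown. Transcription of the first set is governed by E2F factors in late G1 and S phase. That of the second is held back in resting cells by the DREAM complex and switched on in G2 by MuvB with B-MYB and FOXM1, through CHR elements often paired with CCAAT boxes. Resident macrophages of the peritoneal cavity are mostly resting cells that can renew themselves by local division.

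RefSeq promoter windows of GRCm38.p6, running from 250 bases before a gene's start to 50 after it, were found for 38 of the 46 genes. They were searched on both strands for the E2F letters TTNNCGC with C or G at each N, for the CHR letters TTTGAA or TTCGAA, and for CCAAT. An E2F match stood in 13 of 18 replication genes (72.2%) and 4 of 20 mitosis genes (20%), against 10.9% of all 27025 genes of the table. CHR letters stood in 4 of 18 replication genes (22.2%) and 16 of 20 mitosis genes (80%), against 21.7% of all genes. CCAAT stood in 11 replication genes (61.1%) and 18 mitosis genes (90%), against 41.1% of all genes. CHR and CCAAT together were found in 16 mitosis genes and 3 replication genes, and in 8.61% of all genes. A gene with several windows counted if any of them matched, and a match is not evidence of binding.

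The windows of 5 genes are shown because they carry the values described next. Pcna and Cenpa had the most counts among replication and mitosis genes, Aurka and Ccnb2 had the largest differences among genes with enough counts, and Mcm6 was added after the values were seen as the most counted replication gene with an E2F match. Each is written 5′ to 3′ on the gene's strand, with every match to the letters above in capitals. In Mcm6 an E2F match of one strand overlaps one of the other strand at 2 places.
Pcna (chr2:132253131-132253430, minus strand): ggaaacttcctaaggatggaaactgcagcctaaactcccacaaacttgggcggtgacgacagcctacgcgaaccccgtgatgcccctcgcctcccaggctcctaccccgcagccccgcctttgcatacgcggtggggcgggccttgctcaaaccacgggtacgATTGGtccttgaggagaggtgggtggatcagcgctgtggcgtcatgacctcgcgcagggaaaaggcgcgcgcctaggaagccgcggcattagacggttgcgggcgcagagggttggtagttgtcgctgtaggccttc
Mcm6 (chr1:128359656-128359955, minus strand): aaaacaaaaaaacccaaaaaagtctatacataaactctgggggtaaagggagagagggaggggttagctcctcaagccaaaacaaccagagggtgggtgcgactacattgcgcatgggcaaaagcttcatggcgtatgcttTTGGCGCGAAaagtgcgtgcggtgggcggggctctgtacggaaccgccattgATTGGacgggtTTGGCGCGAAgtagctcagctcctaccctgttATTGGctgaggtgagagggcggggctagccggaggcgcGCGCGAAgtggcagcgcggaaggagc
Cenpa (chr5:30666636-30666935, plus strand): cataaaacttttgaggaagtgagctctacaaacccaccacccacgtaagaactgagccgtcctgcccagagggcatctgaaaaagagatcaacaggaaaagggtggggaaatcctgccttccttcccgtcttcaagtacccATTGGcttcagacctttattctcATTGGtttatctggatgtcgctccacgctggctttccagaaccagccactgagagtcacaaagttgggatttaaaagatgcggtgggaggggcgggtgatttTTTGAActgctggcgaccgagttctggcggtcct
Aurka (chr2:172370521-172370820, minus strand): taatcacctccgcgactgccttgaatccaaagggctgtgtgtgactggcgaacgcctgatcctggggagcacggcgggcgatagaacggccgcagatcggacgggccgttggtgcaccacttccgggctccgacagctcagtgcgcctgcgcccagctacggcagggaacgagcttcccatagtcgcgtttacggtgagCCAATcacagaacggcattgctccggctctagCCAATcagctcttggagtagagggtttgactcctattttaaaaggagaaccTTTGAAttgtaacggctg
Ccnb2 (chr9:70421505-70421804, minus strand): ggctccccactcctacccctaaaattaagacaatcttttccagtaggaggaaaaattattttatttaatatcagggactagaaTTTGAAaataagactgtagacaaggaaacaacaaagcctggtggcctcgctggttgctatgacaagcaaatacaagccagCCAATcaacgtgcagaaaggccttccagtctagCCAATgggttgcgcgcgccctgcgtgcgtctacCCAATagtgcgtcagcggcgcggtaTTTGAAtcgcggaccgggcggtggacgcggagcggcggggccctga
The Ccnb2 window holds 3 CCAAT matches and 2 CHR matches that begin at bases 84 and 255 of the window, the Aurka window 2 CCAAT matches and a CHR match at base 283, and the Cenpa window 2 CCAAT matches on the other strand and a CHR match at base 267. The Pcna window holds 1 CCAAT match on the other strand and none of the E2F letters searched.

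Depth was 11740202 estimated counts in the KO library, spread over 14756 listed genes, and 11885784 in the WT library, spread over 14681. Lgmn itself had 426 counts in the KO library and 23550 in the WT library, in the order of the labels. Macrophage markers were abundant, with Lyz2 at 12481 FPKM in the KO library and 13192 FPKM in the WT library and Cd68 at 3756 and 5172 FPKM (KO, WT). The 8 markers went both ways, with log2 ratios below 0 for these 2, Fcgr1 and Cd14 and above 0 for Csf1r, Adgre1, Itgam and Mertk. Csf1r, the receptor for the macrophage growth factor CSF1, had 193 FPKM in the KO library and 83.8 FPKM in the WT library, and Mertk, a receptor for dying cells, had 16.3 and 5.86 FPKM (KO, WT). FPKM is the authors' value normalised to transcript length and library size, and it allows levels to be compared between genes. Counts were scaled between the libraries with TMM factors. A log2 ratio is KO over WT after 1 scaled count was added to each, and a plain ratio has no count added. The 95% interval of a ratio covers counting error only and says nothing of differences between mice.

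Replication and mitosis transcripts were scarce in both libraries, apart from Pcna. Their summed counts were 6653 in the KO library (Poisson interval 6494 to 6815) and 6671 in the WT library (6512 to 6833), which is 567 CPM in the KO library and 561 CPM in the WT library, where CPM is a count relative to the library's total. Of the 46 genes, 44 had an FPKM under 10 in both libraries and 12 an FPKM under 1 in both, and every gene was listed in both. The median FPKM of the 46 was 1.45 in the KO library and 1.44 in the WT library, against 3.26 and 2.41 over all listed genes of those libraries. With RNA pooled over many cells, a smaller share of dividing cells and less of these transcripts per dividing cell cannot be told apart. Transcripts of any EO771 cells in the RNA cannot be told apart from those of macrophages either.

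Pcna, the sliding clamp that also serves DNA repair, stood far above the rest. It reached 198 FPKM in the KO library and 231 FPKM in the WT library. Cenpa, the histone H3 variant of centromeres, came next with 19.3 FPKM in the KO library and 23.4 FPKM in the WT library. In FPKM, Pcna was 25.7 times Mcm6 in the KO library and 39.0 times Mcm6 in the WT library, although both proteins act at the same forks. The order of levels was similar in the 2 libraries, with a Spearman rho of 0.939 for FPKM over the 46 genes, which are not independent replicates. It was 0.980 over the 21 replication genes, 0.887 over the 25 mitosis genes and 0.970 over all 10303 genes tested. The next places were held by Stmn1, Ube2c, Tyms and Mcm6, between 7.70 and 9.71 FPKM in the KO library and between 5.28 and 9.05 FPKM in the WT library.

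**Figure D1:**
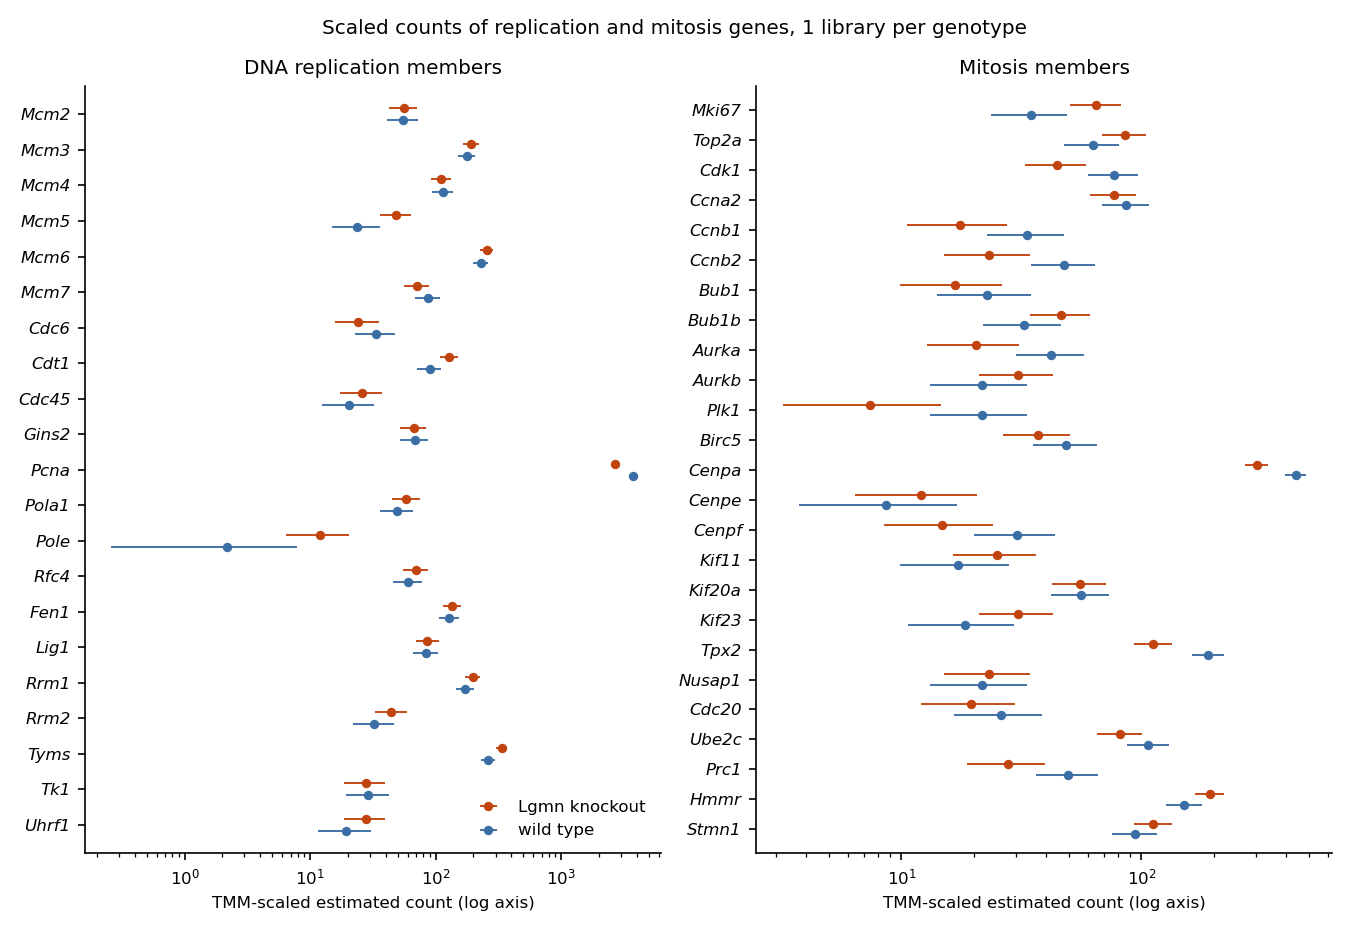
TMM-scaled estimated counts (horizontal log axes, a different range in each panel) of the 21 replication and 25 mitosis genes in the 1 KO and the 1 WT library. Bars are 95% Poisson intervals of counting error; Pcna and Cenpa lie apart from the other genes of their panels in both libraries, and most bars of the 2 libraries overlap.

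The sums depended on 1 gene and on the scaling. All 46 genes together had a ratio of 0.856 (interval 0.827 to 0.885) with TMM scaling and of 1.01 with library totals. Replication genes gave 5055 counts in the KO library and 5060 in the WT library, a ratio of 0.857 (0.824 to 0.891), but Pcna supplied 57.8% of the KO sum and 68.2% of the WT sum. Without Pcna the sums were 2132 in the KO library and 1609 in the WT library, a ratio of 1.14 (1.07 to 1.21). That ratio was 1.34 with library totals and 1.09 after the length trend described below was removed, so it lay above 1 under each of these. Scarce genes in general leaned the same way. All 1594 genes tested that averaged 50 to 100 counts had a median log2 ratio of 0.20 with TMM. Their median was 0.43 with library totals and 0.097 after the length trend was removed. Mitosis genes gave 1598 counts in the KO library and 1611 in the WT library, a ratio of 0.851 (0.794 to 0.913) that was 1.004 with library totals and 0.839 after length adjustment. Without Cenpa, which supplied 20.5% of the KO sum and 25.3% of the WT sum, the mitosis ratio was 0.906 (0.836 to 0.981), and 1.07 with library totals.

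Library totals moved the log2 ratio of the median gene by 0.24, from 0.0057 with TMM to 0.24, and that of the median member tested was 0.26 under library totals. The summed ratio of the 46 genes without Pcna was 0.994 with TMM and 1.17 with library totals. The log2 ratio also followed transcript length over all genes tested, with a Spearman rho of 0.583 over 10303 genes, which are not independent replicates. Its median was -0.29 in the 25% of genes with the shortest transcripts and 0.51 in the 25% with the longest. Members followed the same course, with a rho of 0.339 over the 46 genes, and of -0.138 once a lowess trend on length had been subtracted. Among members tested, the median was -0.38 over 9 in that shortest class and 0.23 over 5 in the longest. Directions are therefore given below under 5 scalings, which were TMM, DESeq2 size factors, library totals, deposited FPKM, and TMM with the length trend removed. The first pair hardly differ.

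**Figure D2:**
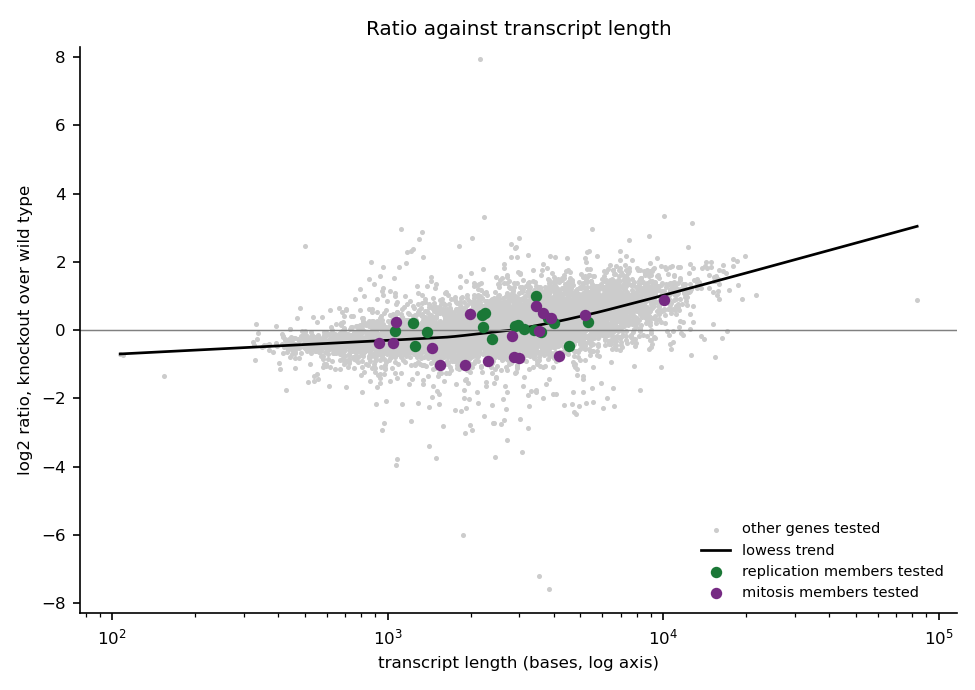
Log2 ratio of KO over WT against transcript length (log axis) for the 10303 genes that averaged at least 25 counts, with the lowess trend as a line. Replication and mitosis genes tested lie within the cloud of other genes, and the median over all genes is -0.29 in the shortest and 0.51 in the longest 25% of transcripts.

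Few of these genes differed by 2-fold. A mean of at least 25 estimated counts over the 2 libraries was reached by 36 of the 46, 18 in each set. The 10 below it were Cdc45, Pole, Uhrf1, Bub1, Plk1, Cenpe, Cenpf, Kif11, Nusap1 and Cdc20. Of the 36, 0 were at least 2-fold higher and 2, Aurka and Ccnb2, at least 2-fold lower in the KO library. Of all 10303 genes tested, 6.14% were higher and 1.94% lower. Aurka and Ccnb2 averaged only 30.5 and 34.5 counts. Among all 1159 genes averaging 25 to 50 counts the shares were larger, 11.2% higher and 6.38% lower. These calls use the log2 ratio with 1 count added, under which Mcm5 was just short of 2-fold at 0.99; its plain ratio was 2.03, and with 0.5 counts added 1 gene was higher and 2 lower. At 1.5-fold, 3 were higher (16.8% of all genes tested) and 6 lower (6.75%), all 6 of them mitosis genes. After length adjustment 0 were at least 2-fold higher and 1 lower, against 2.39% and 2.06% of all genes. Of the 36, 19 log2 ratios were above 0 and 17 below, against 50.5% and 49.5% of all genes tested. Over all 46, including the 10 under the count minimum, 25 were above 0 and 21 below. After length adjustment these were 20 and 26, against 48.7% and 51.3% of all genes tested. The median log2 ratio was 0.10 over the 18 replication genes and -0.27 over the 18 mitosis genes, against 0.0057 over all genes tested. Length adjustment put these at 0.11 and -0.15, against -0.01. Scarce genes in general leaned the other way from the mitosis genes, with a median of 0.18 over all 1159 genes averaging 25 to 50 counts and of 0.20 over the 1594 averaging 50 to 100. The mitosis median itself was -0.014 over the 11 with at least 50 counts in the higher library, of which 0 passed 2-fold.

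**Figure D3:**
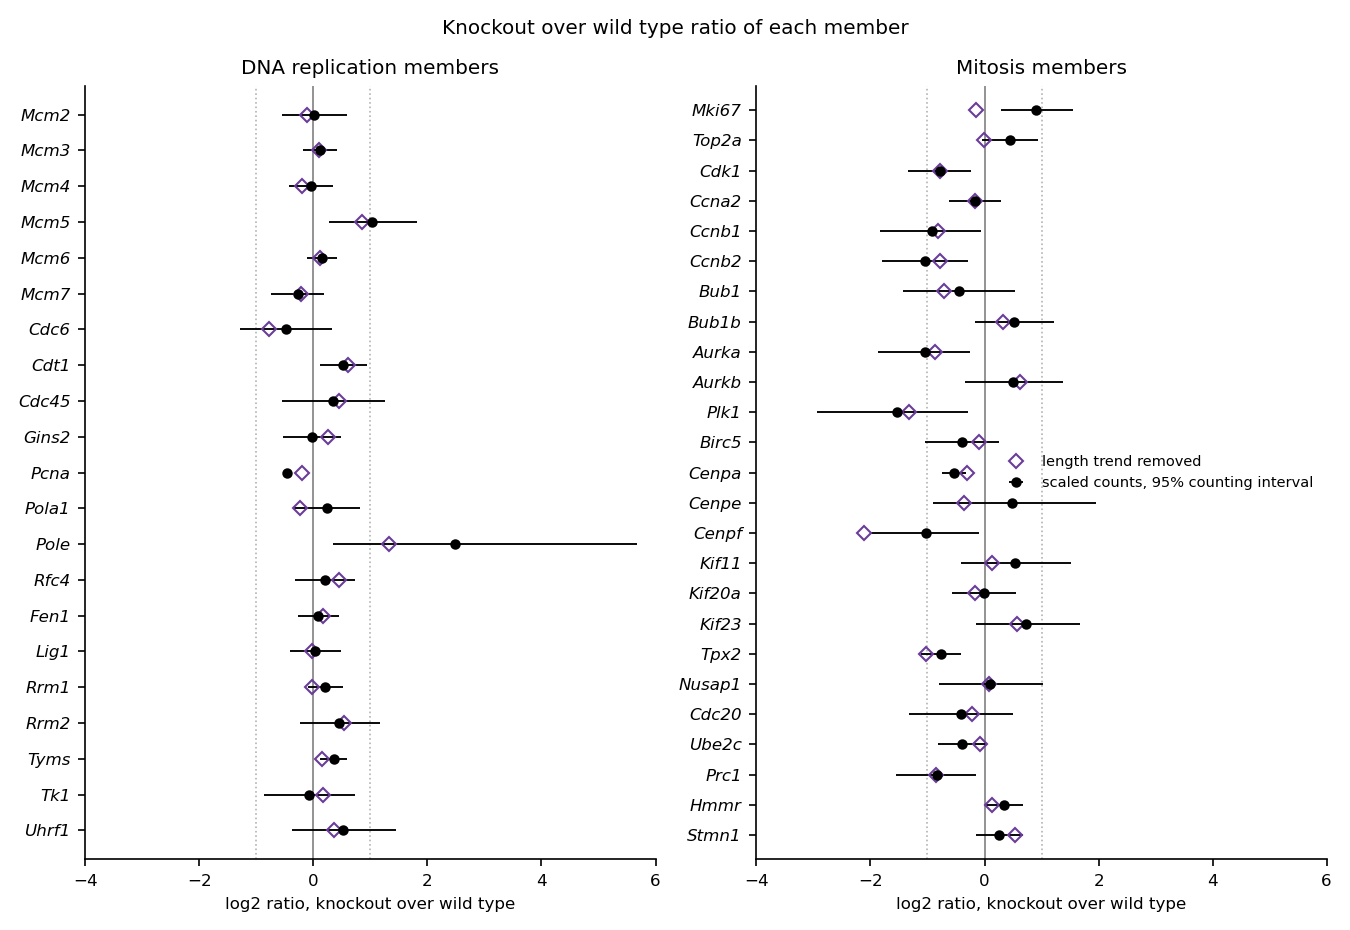
Log2 ratio of KO over WT for each gene from TMM-scaled counts, with no count added, and its 95% counting interval (filled points and bars), and the log2 ratio with 1 count added and the length trend removed (open diamonds). Dotted lines mark 2-fold; of the mitosis genes 9 have intervals wholly below 0 and 2 wholly above, and of the replication genes 1 below and 4 above. Of the 36 tested, 8 lie wholly below and 5 wholly above, against 28.9% and 28.3% of all genes tested.

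Origin licensing and helicase genes had 1056 counts in the KO library and 831 in the WT library over 10 genes. Their ratio was 1.09 (0.995 to 1.20) with TMM, 1.08 after length adjustment and 1.29 with library totals. Mcm3 and Mcm6, subunits of the helicase ring, had 207 and 275 counts in the KO library and 164 and 212 in the WT library, with log2 ratios of 0.11 and 0.15. Mcm2, Mcm4 and Mcm7, of the same ring, had log2 ratios of 0.01, -0.04 and -0.27. Mcm5 had the highest log2 ratio of the ring's subunits. It had 51.8 counts in the KO library and 22.4 in the WT library, a ratio of 2.03 (1.21 to 3.51) and a log2 ratio of 0.99. That interval overlaps those of Mcm2, Mcm3, Mcm4 and Mcm6, but not that of Mcm7. Mcm5 was above 0 under all 5 scalings, from 0.86 to 1.22, as were 38.6% of all genes tested. Among all genes averaging 25 to 50 counts, 11.2% were at least 2-fold higher. Cdt1, which loads the ring at origins, had 139 counts in the KO library and 83 in the WT library, a ratio of 1.44 (1.09 to 1.91), and was also above 0 under all 5. Its partner in loading, Cdc6, had 26 counts in the KO library and 31 in the WT library and was below 0 under all 5, with an interval of 0.410 to 1.25 that includes 1. Cdc45 and Gins2, which join the ring to form the active helicase, had 28 and 72 counts in the KO library and 19 and 63 in the WT library, and their intervals include 1.

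Among the genes of the fork, Pcna had the narrowest interval. It had 2923 counts in the KO library and 3451 in the WT library, 1.38-fold lower in the KO library (1.31 to 1.45). Its log2 ratio was -0.46 and lay between -0.46 and -0.20 under the 5 scalings. Short, abundant transcripts leaned the same way in general, with a median of -0.21 over the 2911 genes averaging at least 500 counts and of -0.29 among the shortest 25% of transcripts. Rfc4, a subunit of the clamp loader, had 75 counts in the KO library and 56 in the WT library, and Fen1, the flap endonuclease that trims Okazaki fragments, had 147 and 119 (KO, WT). Lig1, which seals those fragments, had 93 counts in the KO library and 78 in the WT library, a log2 ratio of 0.03. The intervals of these 3 genes include 1. Pola1, the catalytic subunit of the priming polymerase, had 63 counts in the KO library and 46 in the WT library, and a log2 ratio of 0.23, or -0.23 once adjusted for length. Pole, the leading strand polymerase, had 13 counts in the KO library and 2 in the WT library, a ratio of 5.58 with an interval of 1.26 to 50.9.

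Genes that supply deoxynucleotides had more counts in the KO library, 655 against 459 in the WT library over 4 genes, a ratio of 1.22 (1.09 to 1.38), or 1.09 once adjusted for length. Tyms, thymidylate synthase, had 363 counts in the KO library and 243 in the WT library, a ratio of 1.28 (1.09 to 1.51). Rrm1 and Rrm2, the subunits of ribonucleotide reductase, had 214 and 48 counts in the KO library and 159 and 30 in the WT library. The log2 ratio of Rrm1 was 0.21 and -0.03 after length adjustment, while that of Rrm2 was above 0 under all 5 scalings. Tk1, thymidine kinase, had 30 counts in the KO library and 27 in the WT library, with a log2 ratio of -0.07 and an interval of 0.548 to 1.67. Uhrf1, which recruits the maintenance methyltransferase to newly copied DNA, had 30 counts in the KO library and 18 in the WT library, with an interval of 0.772 to 2.72.

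Of the 9 genes for mitotic kinases and cyclins, 7 had a log2 ratio below 0, among them Plk1, Aurka and Ccnb2 with the lowest log2 ratios of the 46. Of all genes tested 49.5% were below 0. A different 7 of these 9 genes passed the count minimum, all but Plk1 and Bub1. Among those, Cdk1, Ccna2, Ccnb1, Ccnb2 and Aurka were below 0, and Aurkb and Bub1b were above. Cdk1, the mitotic kinase, had 48 counts in the KO library and 71 in the WT library, 1.72-fold lower (1.18 to 2.54). Ccnb1 and Ccnb2, its B-type cyclins, had 19 and 25 counts in the KO library and 31 and 44 in the WT library. Ccnb1 was 1.90-fold lower (1.04 to 3.56) and Ccnb2 2.05-fold lower, a ratio of 0.488 (0.286 to 0.814), and each of these 3 genes was below 0 under all 5 scalings. Aurka, the Aurora kinase of spindle poles, had 22 counts in the KO library and 39 in the WT library, 2.07-fold lower (1.20 to 3.66), with log2 ratios from -1.01 to -0.76 under the 5. Plk1, the Polo kinase, had 8 counts in the KO library and 20 in the WT library, 2.91-fold lower (1.23 to 7.65), with log2 ratios from -1.43 to -1.09. Not all kinases shared this. Aurkb, the Aurora kinase of the chromosomal passenger complex, had 33 counts in the KO library and 20 in the WT library, and Bub1b, of the spindle checkpoint, had 50 and 30 (KO, WT), with log2 ratios of 0.48 and 0.50 that stayed above 0 under all 5 scalings and intervals that include 1. Bub1, another checkpoint kinase, had 18 counts in the KO library and 21 in the WT library, and Ccna2, the cyclin of S and G2 phase, had 83 and 80 (KO, WT), a log2 ratio of -0.17 that was 0.07 with library totals. The 9 genes together had 306 counts in the KO library and 356 in the WT library, a ratio of 0.738 (0.631 to 0.862), 0.741 after length adjustment and 0.870 with library totals.

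Genes of the anaphase promoting complex and of the centromere had log2 ratios below 0 in 5 of 6 cases, 3 of the 6 passing the count minimum, against 49.5% of all genes tested and a median of -0.29 in the shortest 25% of transcripts. Cdc20, its activator, and Ube2c, its ubiquitin-conjugating enzyme, had 21 and 88.3 counts in the KO library and 24 and 99.0 in the WT library, below 0 under all 5 scalings with intervals that include 1. Cenpa had 327 counts in the KO library and 407 in the WT library, 1.45-fold lower (1.25 to 1.68), with log2 ratios between -0.54 and -0.28. Cenpf, a kinetochore protein with a very long transcript of 11130 bases, had 16.3 counts in the KO library and 27.7 in the WT library, 2.04-fold lower (1.07 to 4.04). Its log2 ratio of -0.98 went to -2.11 with length adjustment, against the direction in which long transcripts lean. Cenpe, a kinetochore motor, had 13 counts in the KO library and 8 in the WT library, and Birc5, the passenger protein survivin, had 40 and 44.6 (KO, WT). The sign of both depended on the scaling.

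Spindle and cytokinesis genes went both ways. Tpx2, which activates Aurora A on the spindle, had 121 counts in the KO library and 176 in the WT library, 1.70-fold lower (1.34 to 2.15), and -1.02 on the log2 scale after length adjustment. Prc1, which bundles microtubules of the central spindle, had 30.1 counts in the KO library and 45.7 in the WT library, 1.79-fold lower (1.10 to 2.93). Kif23, a motor of the same central spindle, had 33 counts in the KO library and 17 in the WT library, a ratio of 1.67 (0.901 to 3.19). Its log2 ratio was above 0 under all 5 scalings, as were those of Kif11, the motor that separates spindle poles, and Nusap1, a microtubule-binding protein. Hmmr, a spindle protein also known as a hyaluronan receptor, had 208 counts in the KO library and 140 in the WT library, a ratio of 1.27 (1.02 to 1.59), and Stmn1, which destabilises microtubules, had 121 and 87 (KO, WT). Kif20a, a cytokinesis motor, had 60 counts in the KO library and 52 in the WT library, a log2 ratio of -0.01. The 8 genes together had a ratio of 0.968 (0.862 to 1.09), 0.907 after length adjustment and 1.14 with library totals.

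Mki67 and Top2a, often used as markers of proliferation, did not share the lower values of the cyclin B group. Pcna, by contrast, was below 0 under all 5 scalings. Mki67, which coats mitotic chromosomes and encodes the Ki-67 antigen, had 70 counts in the KO library and 32 in the WT library, a ratio of 1.88 (1.22 to 2.95). Top2a, which untangles sister chromatids, had 92 counts in the KO library and 58 in the WT library, a ratio of 1.36 (0.969 to 1.92). Both have long transcripts, of 10098 and 5217 bases. After length adjustment the log2 ratio of Mki67 was -0.14, against 0.89 before it, and that of Top2a was -0.0005, against 0.44, so neither has a direction that holds under the 5 scalings.

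Counted over all 46, the log2 ratio was above 0 under all 5 scalings for 18 genes, below 0 for 15, and of changing sign for 13. Replication genes divided 11 above, 3 below and 7 changing, and mitosis genes 7 above, 12 below and 6 changing. Among the 36 with enough counts, 13 were above and 11 below, against 38.6% and 27.1% of all genes tested, which puts the whole set near the background in both directions. The 12 mitosis genes below 0 were Cdk1, Ccnb1, Ccnb2, Bub1, Aurka, Plk1, Cenpa, Cenpf, Tpx2, Cdc20, Ube2c and Prc1, and 8 of them had enough counts to be tested. The 3 replication genes below 0 were Pcna, Mcm7 and Cdc6.

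Other tested genes of the same processes, from lists chosen with earlier results of these data known, stayed within 2-fold. Of 55 further replication genes 38 were tested and 0 passed 2-fold, with 16 above and 22 below 0 and a median log2 ratio of -0.07. Dnmt1, the maintenance DNA methyltransferase, had 716 counts in the KO library and 392 in the WT library, a log2 ratio of 0.65, or 0.19 once adjusted for length. Rpa3, which binds single-stranded DNA, and Rfc2, of the clamp loader, had 93 and 842 counts in the KO library and 118 and 1055 in the WT library, with log2 ratios of -0.56 and -0.55. Of 72 further mitosis genes 32 were tested and 0 passed 2-fold, with 14 above and 18 below 0 and a median of -0.07. Lmnb1, a nuclear lamin, and Smc2, of condensin, had 40 and 83 counts in the KO library and 19 and 40 in the WT library. Spc25, of the kinetochore, had 42 counts in the KO library and 64 in the WT library. The log2 ratios of these 3 were 0.82, 0.82 and -0.81, and each kept its sign under all 5 scalings.

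Tested regulators of cell cycle entry were also within 2-fold, while Gadd45a, among the brakes, was not. Of 29 genes for G1 cyclins, their kinases, E2F and Rb family members and MuvB subunits, 21 were tested and 0 passed 2-fold, with a median of 0.0037. Rbl1, the p107 member of the Rb family, had 268 counts in the KO library and 154 in the WT library, Myc had 33 and 48 (KO, WT), and Ccne1 had 36 and 45 (KO, WT). Of 19 genes for CDK inhibitors and other brakes, 16 were tested, with a median of -0.30. Maf, a transcription factor known in mice to restrain macrophage renewal, had 453 counts in the KO library and 203 in the WT library, a ratio of 1.91 (1.62 to 2.27). Gadd45a, a stress-induced inhibitor of growth, had 509 counts in the KO library and 1188 in the WT library, 2.72-fold lower (2.45 to 3.02). Both kept their sign under the 5 scalings.

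**Figure D4:**
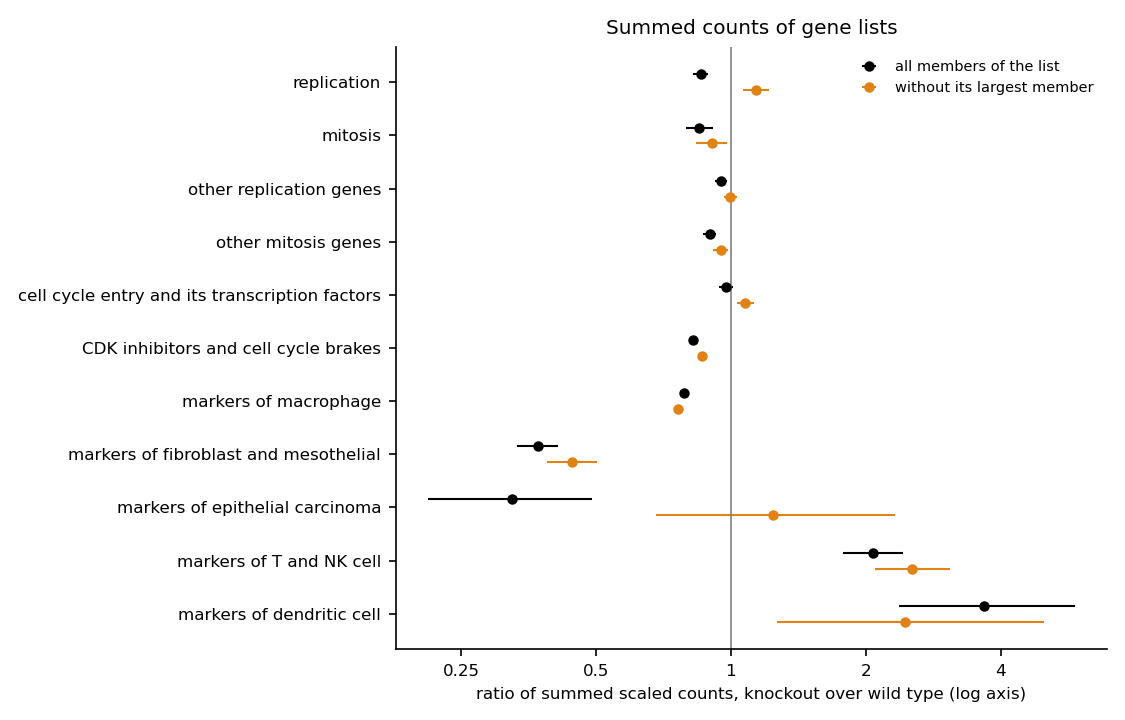
Ratio of summed TMM-scaled counts, KO over WT (log axis), for each gene list and for marker lists of cell types, with 95% counting intervals, over the whole list (black) and without its most counted gene (orange). The replication ratio lies at 0.857 with Pcna and 1.14 without it, while the fibroblast and mesothelial ratio lies at 0.370 and the T and NK cell ratio at 2.07.

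Markers of other cells differed between the libraries. The 10 fibroblast and mesothelial markers summed to 497 counts in the KO library and 1151 in the WT library, with 9 of 10 below 0. Thy1 went the other way, with 198 counts in the KO library and 140 in the WT library. The mesothelial genes Msln and Upk3b had 0 counts in the KO library and 1 and 5 in the WT library. Only 6 of the 10 passed the count minimum, 5 of them below 0, against 49.5% of all genes tested. T and NK cell markers summed to 565 counts in the KO library and 234 in the WT library, with 9 of 9 listed genes above 0. The 6 that passed the count minimum were all above 0, against 50.5% of all genes tested. Dendritic cell markers summed to 111 counts in the KO library and 26 in the WT library, with 4 of 5 listed genes above 0. Only 1 of these markers passed the count minimum. B cell markers summed to 41 counts in the KO library and 23 in the WT library. The defining epithelial markers Epcam, Krt8 and Krt18 had 2, 2 and 4 counts in the KO library and 1, 5 and 2 in the WT library, Krt19 had 4 and 67 (KO, WT), Cdh1 had 21 and 11 (KO, WT), and Krt5 and Krt14 were listed in neither. The part of these cells in the replication and mitosis values was not tested.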

How the data were processed

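Per the labels' protocols, libraries were read on a BGISEQ-500, with 1 library per genotype label. The deposited tables hold estimated counts, unscaled between libraries, and FPKM, scaled by the authors to transcript length and mapped fragments, per the file headers. Per the submitters' processing notes, HISAT2, Bowtie2, RSEM and the mm10 build were used, with no role or version stated. No listed FPKM is under 0.01, so an unlisted gene was taken as 0. Estimated counts of 9 of the 46 genes were not whole in either or both libraries, and the sources used here do not say whether strand was used, so antisense and overlapping genes cannot be told apart.

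Symbols came from RefSeq GRCm38.p6, the assembly of mm10, for 15561 of 15605 gene identifiers. Counts were rounded and scaled with TMM (edgeR 4.0.16, R 4.3.3). Genes averaging at least 25 counts over the libraries entered medians and counts past 2-fold. Ratio intervals are exact Clopper-Pearson intervals at 95% of the KO share of counts, and those of a sum are exact Poisson intervals. No molecular identifiers are stated, reads may be PCR copies, and intervals cover counting error only. The length trend is a lowess curve with a span of 0.3. Alternatives were library totals, size factors from DESeq2 1.42.0, FPKM with 0.1 added, other count minimums, other pseudocounts, a 1.5-fold threshold and sums without the most counted gene. The calculation was tested on simulated data. The members and lists were chosen with earlier results of these data known. Of each other list, the 3 tested genes with the largest log2 ratios were named, except for an item that is not reported here. The tools were scipy 1.17.1, numpy 2.4.6, matplotlib 3.10.9, statsmodels 0.14.6 and pandas 2.3.3, run in Python 3.11.15.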

Additional observations from a re-analysis of the deposited data

How the results depend on the processing

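With 1 library per genotype no replicate could be left out. No paired analysis was possible because each group has 1 sample. Of 53 alternatives, 30 moved a value by more than its interval, by more than 0.1 on the log2 scale for a median, or by more than 1.5 times for a count. The ratio of the 46 genes, 0.856, was 1.01 with library totals, 0.915 without the length trend, 0.994 without Pcna and 0.946 with summed FPKM. That of replication genes, 0.857, was 1.01, 0.940, 1.14 and 0.942 under the same changes, and that of mitosis genes, 0.851, was 1.004 with totals and 0.964 with FPKM. The replication median, 0.10, was 0.34 with totals and with FPKM. The mitosis median, -0.27, was -0.039 with totals, -0.15 without the length trend, 0.064 with FPKM, -0.38 with no filter, -0.014 with at least 50 counts in the higher library and -0.14 with a mean of at least 100. The number of members past 2-fold, 2, was 1 without the length trend, 1 with FPKM, 0 with a pseudocount of 5, 4 with no filter, 0 with either stricter filter and 9 at 1.5-fold. With totals it was 2 again, but 2 higher and 0 lower in place of 0 and 2. Over all genes it was 833 (633 higher, 200 lower), and 1261 (1137 and 124) with totals, 1128 (1011 and 117) with FPKM, 458 (246 and 212) without the length trend, 2990 with no filter, 424 with a mean of at least 100 and 2422 at 1.5-fold. Stricter filters test fewer genes by construction, and the cause of the other moves was not tested. Depth limits these values, since 10 of 46 members lay under a mean of 25 counts and the intervals of 30 include 1.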

Other observations

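The promoter letters were also counted in the further genes of both processes. E2F letters stood in 26 of 42 further replication genes (61.9%) and 15 of 62 further mitosis genes (24.2%). CHR letters stood in 7 of 42 (16.7%) and 44 of 62 (71.0%) of the same genes, and CHR with CCAAT in 9.52% and 54.8%. Sorted by these letters instead of by function, the 12 members with E2F and no CHR match had 10 log2 ratios above 0 and 2 below, with a median of 0.20, where 50.5% of all genes tested were above 0. The 15 members with CHR and no E2F match, among them Aurka, Ccnb2, Plk1, Prc1 and Cenpa but also Kif11 and Kif23, had 6 above and 9 below, with a median of -0.40. After length adjustment the counts were 7 above and 5 below for the first group and 4 above and 11 below for the second, with medians of 0.11 and -0.22. With only the members that averaged at least 25 counts, the first group had 9 above and 2 below, with a median of 0.20. The second had 4 above and 5 below, with a median of -0.39. Length adjustment of these same members gave 6 above and 5 below, with a median of 0.095, for the first group. For the second it gave 2 above and 7 below, with a median of -0.11. Without filter or adjustment, the 5 members with both matches had 3 above and 2 below. The 6 with neither match had 3 above and 3 below. Most members with E2F and no CHR match were replication genes, and most with CHR and no E2F match were mitosis genes. The sort by letters therefore largely repeats the split by function. The comparison was made after the values were seen and was not tested.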
